A study of Mus musculus with 9 samples.

Results

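The mitochondrial ribosomal proteins were followed across 9 expression arrays of mouse embryonic fibroblasts. They were taken by name, as every probe set whose single gene symbol in the platform annotation starts with Mrpl or Mrps followed by a number. This gave 156 probe sets and 76 genes, of 18193 genes with a single symbol, and each gene was read by its probe set of highest mean signal. The mitochondrial ribosome translates the few messages that mitochondrial DNA encodes, all of them for subunits of the respiratory chain and ATP synthase. Its ribosomal RNAs come from mitochondrial DNA, whereas every one of its proteins is encoded in the nucleus, made in the cytosol and imported. Its proteins fall into a large subunit, where peptide bonds form, and a small subunit, where the message is decoded, and many have a counterpart in bacterial ribosomes while others occur only in mitochondria.

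Total RNA was measured from spontaneously immortalised fibroblasts of 2 genotypes derived from E13.5 embryos, and the cells of each genotype are called a line here. The labels do not say how many lines of each genotype were used. The Suv420h1-null line lacks the histone H4 methyltransferase Suv420h1 (gene symbol Kmt5b) and was measured with a Suv420h1-GFP fusion added back (1 array), and without it (2 arrays, untransduced and with GFP). The wild-type (wt) line was transduced with lentivirus to express PREX2, an exchange factor for the GTPase Rac, and the arrays carried the truncated forms K278*, E824* and Q1430* (3 arrays), the full-length protein (1 array) or a control vector, GFP or LacZ (2 arrays). The labels name no second line of either genotype and no untransduced wild-type array, so genotype and line cannot be told apart, and no construct was repeated within a line. The labels do not say whether arrays within a group were separate cultures, and p-values therefore cover the array-to-array spread alone, which may be technical. In such bulk samples fewer cells of a type and less RNA per cell cannot be told apart.

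The values are array signals on a linear scale, with a mean of 500 on each array after trimming 2% from each end. A Kmt5b probe set with a mean signal of 117.5 read 8.85 and 17.3 on the null arrays and 150.3 on the add-back array, against 118 to 182 on the 6 wild-type-line arrays. The other Kmt5b probe sets did not show this loss. The brightest read 442 and 432 on the null arrays and 328 on the add-back array, against 295 to 470 in the wild-type line. The next brightest read 536, 462 and 554, against 221 to 338. The dimmer ones read 101, 79.4 and 66.2, against 103 to 153, and 52.5, 57.3 and 52.5, against 45.6 to 79.9. All 11 fibroblast markers had a mean signal over 100, but Thy1, a surface marker of fibroblasts, read 6.90 to 27.3 in the null line, against 1097 to 3641 in the wild-type line. The summed fibroblast signal was 138353 to 148769 in the null line and 150033 to 185941 in the wild-type line. Neural markers (3 of 4 over 100) summed to 229 to 411 in the null line and 1055 to 2224 in the wild-type line. Leukocyte markers (3 of 4) summed to 882 to 1251 in the null line and 615 to 1637 in the wild-type line, and epithelial markers (2 of 5) to 471 to 559 in the null line and 584 to 641 in the wild-type line. Endothelial, muscle and germ line lists had 0 markers over 100. On the second principal component (17.8% of the variance) the wild-type GFP array lay at 59.6 and K278* at 19.4, apart from the other 4 wild-type-line arrays at -30.7 to -3.82. The part of these differences in the results below was not tested.

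The main comparison set the 3 null-line arrays, add-back included, against the 6 wild-type-line arrays, and asks which transcripts differ between cells without and with endogenous Suv420h1. Most mitochondrial ribosomal protein genes were lower in the null line. Of 76 genes, all of which passed the filter on low signals, 45 were lower, 2 were higher and 29 did not pass the threshold of an adjusted p of 0.05 (limma, Benjamini-Hochberg over 19090 probe sets). Among all 10177 tested genes 23.2% were lower and 20.7% higher, 43.9% in either direction. The median log2 change of the 76 genes was -0.35, beside -0.02 over all tested genes, and 66 of the 76 lay below 0. Most of the changes were small: only 3 genes, all of the large subunit, exceeded 2-fold. All 3 null-line arrays lay below all 6 wild-type-line arrays for 45 of the 76 genes (59.2%), beside 21.1% of all genes, and above them for 2, beside 20.3% of all genes. The sets differed slightly: the called genes Mrps7 and Mrps9 overlapped between lines, while Mrpl3 and Mrpl42 did not overlap and were not called (adjusted p = 0.103 and 0.0898).

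**Figure D1:**
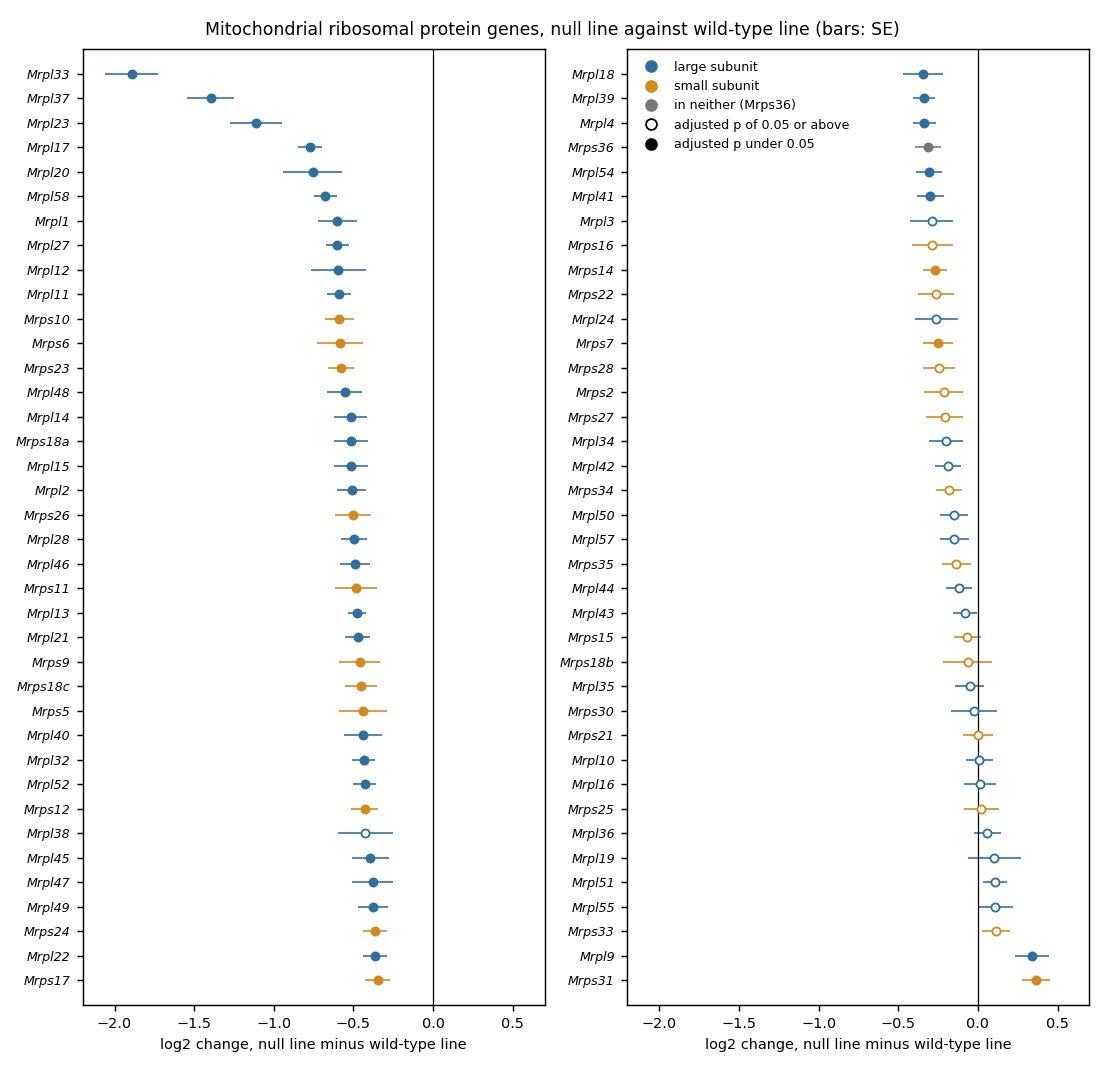
Log2 change of each of the 76 genes, null line (3 arrays) minus wild-type line (6 arrays), with SE bars, ordered from lowest to highest over both panels. Filled points passed an adjusted p of 0.05, and colours give the subunit. Mrpl33, Mrpl37 and Mrpl23 lie lowest, and Mrps31 and Mrpl9 are the filled points above 0.

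The largest difference was in Mrpl33, a small large-subunit protein with a bacterial counterpart. Its signal was 1402 on the untransduced null array, 1285 on the null GFP array and 1453 on the add-back array, against a lowest of 3515, a median of 5544 and a highest of 6343 on the wild-type-line arrays. No null-line array came near the wild-type range, and the null line was 3.72-fold lower (log2 -1.89, SE 0.164, adjusted p = 8.06e-06). Mrpl37, a large-subunit protein found only in mitochondrial ribosomes, read 434, 382 and 376 on the same null-line arrays, against 814, 1145 and 1283 as the lowest, median and highest of the wild-type line, and was 2.63-fold lower in the null line (log2 -1.40, SE 0.145, adjusted p = 2.94e-05). Its probe set carries the suffix _s_at, which marks probes that can also match other transcripts. Mrpl23 is the counterpart of the bacterial protein at the mouth of the tunnel through which the new chain leaves. It read 732 and 841 on the null arrays and 1173 on the add-back array, against 1531, 2055 and 2344, and was 2.16-fold lower (log2 -1.11, SE 0.163, adjusted p = 0.000319). The add-back array was the highest of the null line for this gene but still lay below the wild-type line, and without it the log2 change was -1.30.

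Mrpl17, another large-subunit protein with a bacterial counterpart, read 3101, 2936 and 3373 on the untransduced, GFP and add-back arrays of the null line, against 5066, 5352 and 5899.6 as the lowest, median and highest of the wild-type line (log2 -0.77, SE 0.0744, adjusted p = 1.69e-05). Mrpl58, also known as ICT1, is a peptidyl-tRNA hydrolase built into the large subunit that frees chains from stalled ribosomes. Its null-line signals of 1921, 1858 and 1786 were all below wild-type-line signals of 2820.2, 3014 and 3100.0 (log2 -0.68, SE 0.0702, adjusted p = 2.89e-05). Mrpl27, whose bacterial counterpart lies close to the site of peptide bond formation, varied little within the null line, at 3729, 3791 and 3766, against 5206, 5819 and 6082 in the wild-type line (log2 -0.60, SE 0.0731, adjusted p = 8.61e-05). For Mrpl17, Mrpl58 and Mrpl27 the gap between the lines was wider than the whole range within the null line.

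Mrpl20, whose bacterial counterpart is needed to assemble the large subunit, was lower and also the most variable of the 76 genes within the wild-type line. It read 1153, 1234 and 1242 in the null line, against 2481, 1769.5 and 1492 with K278*, E824* and Q1430*, 2139 with full-length PREX2, 2963 with GFP and 1828 with LacZ (log2 -0.76, SE 0.184, adjusted p = 0.00693). Mrpl12, a stalk protein whose human form was also found to bind the mitochondrial RNA polymerase, had null-line signals of 3532, 2740.2 and 3370.2 and wild-type-line signals with a lowest of 4001, a median of 4499 and a highest of 6934 (log2 -0.59, SE 0.173, adjusted p = 0.0174). In both genes the highest wild-type-line value came from the GFP array. Mrpl12 was not called with the null GFP array left out (log2 -0.48, adjusted p = 0.0886). The remaining genes among the 10 largest changes were Mrpl1, of the stalk that lines the exit site for transfer RNA (log2 -0.60, SE 0.122, adjusted p = 0.00241), and Mrpl11, of the base of the stalk that receives translation factors (log2 -0.59, SE 0.0752, adjusted p = 0.000118).

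**Figure D2:**
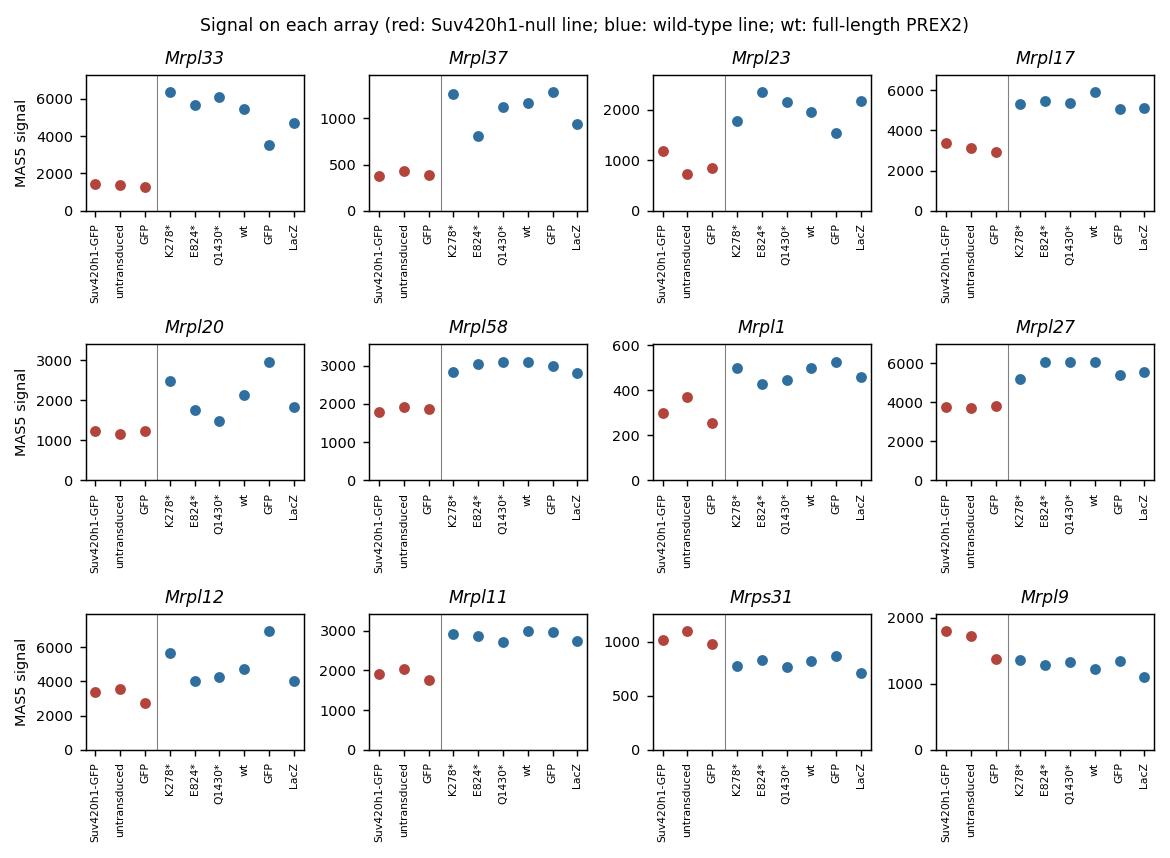
Signal on each array (linear scale, axis from 0) for the 10 genes with the largest called decreases and the 2 called increases, null line in red left of the vertical line and wild-type line in blue. In each panel of a lowered gene every red point lies below every blue point, as for Mrpl33 at 1285 to 1453 against 3515 to 6343.

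The other 35 lowered genes had log2 changes of -0.59 to -0.25, or 1.19-fold to 1.505-fold. They hold the largest decreases of the small subunit, in Mrps10 (log2 -0.59, SE 0.0904), Mrps6 (-0.58, SE 0.144) and Mrps23 (-0.58, SE 0.0821). Mrps10 and Mrps6 have bacterial counterparts, and Mrps23 has none. Mrps6 read 7586, 5659 and 7814 in the null line, against 9365, 9675 and 14178 in the wild-type line, where the GFP array was again the highest. Mrps12, the counterpart of the bacterial protein at the decoding centre, was lower as well, at 1504, 1449 and 1511 against 1881, 1938 and 2236 (log2 -0.43, SE 0.0864, adjusted p = 0.00229).

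The counts by role stand beside 23.2% lower and 20.7% higher among all tested genes. By role, 31 of 49 large-subunit genes were lower and 1 was higher, with a median log2 change of -0.38. Of 26 small-subunit genes 13 were lower and 1 was higher, with a median of -0.27. Genes with a bacterial counterpart counted 29 lower and 1 higher of 43 (median -0.38), and genes of proteins found only in mitochondria 13 lower and 1 higher of 28 (median -0.28). The smallest share of lowered genes was in the mitochondria-specific proteins of the small subunit, with 2 lower and 1 higher of 9 (median -0.18). That share of lowered genes was near the 23.2% of all tested genes. Small-subunit proteins with a bacterial counterpart counted 10 lower of 15 (median -0.35). The differences between these sets were not tested. Sets were assigned from general knowledge of the ribosome's structure, with Mrps18a and Mrps30 counted in the large subunit, where their proteins are found despite their names.

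The 3 relatives of the bacterial small-subunit protein S18 did not all pass. Mrps18a read 1494, 1558 and 1717 in the null line, against 1915, 2344 and 2669 as the lowest, median and highest of the wild-type line (log2 -0.52, SE 0.106, adjusted p = 0.00258). Mrps18c, which holds the place of bacterial S18 in the small subunit, read 2489, 2495 and 2722 against 3059.8, 3559 and 4048 (log2 -0.45, SE 0.102, adjusted p = 0.00453). Mrps18b differed by -0.06 (SE 0.153, adjusted p = 0.759), with null-line signals of 1780.2, 1645 and 1615 inside a wild-type range of 1473 to 2488. Mrps30 differed by -0.02 (SE 0.143, adjusted p = 0.911), and Mrpl44, which has a fold like that of RNase III, by -0.12 (SE 0.0816, adjusted p = 0.256). A further case is Mrps36, whose protein is now known as a subunit of the mitochondrial alpha-ketoglutarate dehydrogenase complex and not of the ribosome. It was lower in the null line, at 1778, 2111 and 1942 against 2259.9, 2395 and 2643 (log2 -0.31, SE 0.0837, adjusted p = 0.0113), but did not pass with the untransduced null array left out (adjusted p = 0.0653).

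Only Mrps31 and Mrpl9 were higher in the null line, by 1.29-fold and 1.27-fold. Mrps31, a small-subunit protein without a bacterial counterpart, read 1094 and 976 on the null arrays and 1015 on the add-back array, against 712, 795 and 862 as the lowest, median and highest of the wild-type line (log2 0.37, SE 0.0886, adjusted p = 0.00666). Mrpl9, a large-subunit protein with a bacterial counterpart, read 1722, 1372 and 1794 against 1103, 1308 and 1366, so the null GFP array stood just above the highest wild-type-line array (log2 0.34, SE 0.107, adjusted p = 0.0242). The Mrpl9 call ended with the untransduced null array left out (log2 0.30, adjusted p = 0.101) and with the add-back array left out (log2 0.27, adjusted p = 0.113). The next values above 0, which did not pass, were 0.11 each for Mrpl51, Mrps33 and Mrpl55.

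The 76 genes lie on 17 chromosomes, and genes lowered in the null line lay on 15 of them. Chromosomes differed in their share of lowered genes over all tested genes, between 8.13% (chromosome 6) and 42.5% (chromosome 15) among those that carry a member. Counts of members went with this in places: 6 of 6 were lower on chromosome 7, where 40.0% of all genes were lower with a median log2 change of -0.27, and 0 of 6 on chromosome 6, where 8.13% were lower with a median of 0.22. Elsewhere they did not: 6 of 8 members were lower on chromosome 17, where 14.3% of all genes were lower with a median of 0.09, and 3 of 3 on chromosome 16, where 19.2% were lower with a median of 0.08. Mrps31 lies on chromosome 8, whose median change over all genes was 0.37, the same as that of Mrps31 itself. Mrpl9 lies on chromosome 3, with a median of 0.18. With the median of the gene's own chromosome subtracted, the members' median was -0.33 instead of -0.35, 70 of 76 lay below 0, and the extremes were -1.85 (Mrpl33) and 0.16 (Mrpl9). Copy number was not measured here.

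Promoters of the members with the largest changes are shown because sequence was a feature that the choice of the 76 genes did not use. RefSeq promoters (GRCm38.p6, windows of 300 bases from 250 before to 50 after the start site) were matched for 67 of the 76 genes, giving 73 promoters, and the 150 bases that end at the start site are printed for 10 of them. Capitals mark letters searched for on both strands: GCGCA and GCGC with any 1 base between them, the core bound by the nuclear respiratory factor NRF1, CCGGAAG, bound by ETS factors such as GABP, AAGATGGCG, bound by YY1, CACGTG, the E-box bound by MYC and others, and GGGCGG, the GC box bound by Sp1. The 5 genes with the largest decreases come first, Mrpl33 at chr5:31613801-31613950 (plus strand), Mrpl37 at chr4:107066867-107067016 (minus strand), Mrpl23 at chr7:142532882-142533031 (plus strand), Mrpl17 at chr7:105811088-105811237 (minus strand) and Mrpl20 at chr4:155802728-155802877 (plus strand). Mrps31 at chr8:22411190-22411339 (plus strand) and Mrpl9 at chr3:94443186-94443335 (plus strand) were higher in the null line. The last 3 were chosen because their printed stretch carries 1 of the first 3 motifs, so their motifs are not a result. They are Mrpl12 at chr11:120484487-120484636 (plus strand) for the NRF1 letters, Mrpl58 at chr11:115403602-115403751 (plus strand) for the ETS letters and Mrps11 at chr7:78782981-78783130 (plus strand) for the YY1 letters.
Mrpl33: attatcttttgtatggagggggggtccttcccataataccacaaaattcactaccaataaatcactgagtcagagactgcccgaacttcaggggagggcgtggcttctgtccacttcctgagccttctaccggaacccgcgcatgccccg
Mrpl37: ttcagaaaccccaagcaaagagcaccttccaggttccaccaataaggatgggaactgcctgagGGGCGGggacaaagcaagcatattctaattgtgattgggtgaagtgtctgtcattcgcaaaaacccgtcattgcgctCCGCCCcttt
Mrpl23: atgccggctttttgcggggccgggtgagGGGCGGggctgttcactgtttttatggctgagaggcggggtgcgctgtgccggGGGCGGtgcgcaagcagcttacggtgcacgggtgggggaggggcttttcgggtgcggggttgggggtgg
Mrpl17: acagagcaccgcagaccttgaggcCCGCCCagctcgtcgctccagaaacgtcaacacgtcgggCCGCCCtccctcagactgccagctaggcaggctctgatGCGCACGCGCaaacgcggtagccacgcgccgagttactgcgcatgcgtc
Mrpl20: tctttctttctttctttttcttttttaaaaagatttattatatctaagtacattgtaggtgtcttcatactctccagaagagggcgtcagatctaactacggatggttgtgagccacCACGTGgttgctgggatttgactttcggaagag
Mrps31: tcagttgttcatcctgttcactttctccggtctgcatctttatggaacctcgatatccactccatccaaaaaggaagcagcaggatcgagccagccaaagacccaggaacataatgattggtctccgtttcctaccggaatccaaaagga
Mrpl9: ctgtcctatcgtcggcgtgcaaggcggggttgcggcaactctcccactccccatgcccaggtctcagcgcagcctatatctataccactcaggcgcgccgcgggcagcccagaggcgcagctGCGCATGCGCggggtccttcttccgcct
Mrpl12: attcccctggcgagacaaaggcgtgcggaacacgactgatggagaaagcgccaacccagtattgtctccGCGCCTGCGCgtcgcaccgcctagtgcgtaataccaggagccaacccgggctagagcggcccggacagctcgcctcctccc
Mrpl58: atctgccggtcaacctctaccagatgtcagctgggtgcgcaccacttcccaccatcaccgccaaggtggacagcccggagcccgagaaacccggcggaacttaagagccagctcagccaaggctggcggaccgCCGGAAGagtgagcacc
Mrps11: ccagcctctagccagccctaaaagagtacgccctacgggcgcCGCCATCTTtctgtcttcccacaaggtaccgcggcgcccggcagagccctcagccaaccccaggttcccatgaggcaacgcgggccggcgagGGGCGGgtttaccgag

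In the printed stretch Mrpl33, with the largest decrease, and Mrps31, with the larger increase, held none of the 5 motifs. The whole Mrpl33 window does hold ETS letters, at position -3 from the start site, where they run past the end of the printed stretch, while the whole Mrps31 window held none of the 5. NRF1 letters stood both in Mrpl17, which was lower, and in Mrpl9, which was higher. Over the whole windows, NRF1 letters were in 12 of 73 member promoters (16.4%), beside 7.43% of the promoters of all genes with a single symbol on the array and 4.60% of all promoters in the table. ETS letters were in 25 (34.2%, beside 2355 of 18110 promoters of array genes and 8.86% of all) and YY1 letters in 8 (11.0%, beside 2.09% and 1.40%). At least 1 of these 3 was in 39 member promoters (53.4%, beside 20.3% and 13.6%). E-box letters were in 7 (9.59%, beside 8.72% and 7.15%) and GC boxes in 39 (53.4%, beside 52.3% and 35.7%). Between members that were lower (46 promoters of 41 genes) and members that were not called (25 promoters of 24 genes), the counts were 8 and 3 for NRF1, 14 and 11 for ETS, 4 and 4 for YY1, 6 and 1 for the E-box, and 28 and 11 for the GC box. These are counts of promoters, and 3 of the 67 genes had more than 1. The windows of Mrpl2, which was lower, overlap, so the same E-box and GC box letters were counted repeatedly. ETS and YY1 letters thus stood in a larger share of the promoters of members that were not called than of members that were lower, a difference that was not tested.

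Where a gene had further probe sets, these were compared with the brightest. There were 46 other tested probe sets in 29 of the genes. Of 28 that belong to lowered genes, 19 were also lower, 9 were not called and 0 were higher, and 26 had a change below 0. For genes that were not called, 4 of 16 other probe sets were lower, among them that of Mrps15 (log2 -0.46, SE 0.122), whose brightest probe set differed by -0.07. Mrpl49 differed by -0.38 at its brightest probe set and by -0.95 (SE 0.114) at another, and Mrpl28 by -0.50, with other probe sets at -0.64 (SE 0.0791) and 0.12 (SE 0.167). These 3 genes were singled out after their values were seen. Both other probe sets of Mrpl9 lay above 0 (0.26 and 0.10) without passing. Mrpl33, Mrpl37, Mrpl23, Mrpl17, Mrpl20 and Mrpl58 had 1 tested probe set each, so their changes rest on that set.

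**Figure D3:**
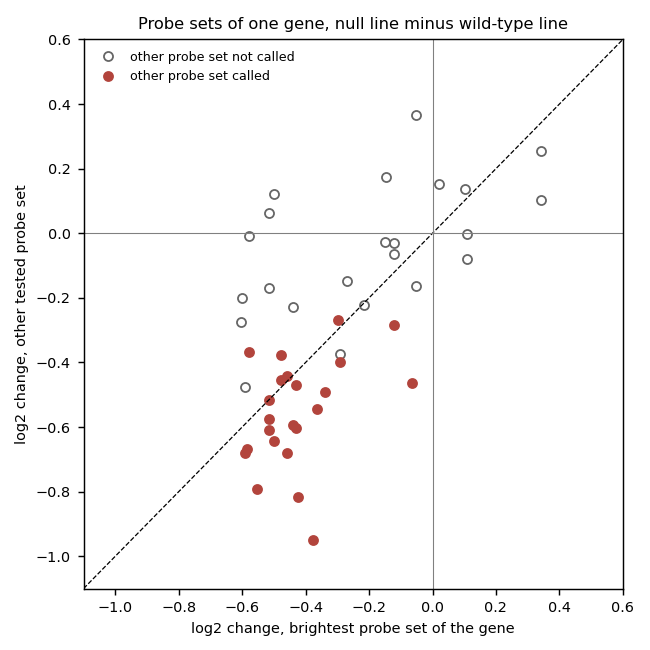
Log2 change, null line minus wild-type line, of each of 46 other tested probe sets (vertical) against that of the brightest probe set of the same gene (horizontal), with the line of equality dashed. Filled points passed an adjusted p of 0.05, and all 23 of them lie below 0 on both axes.

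Each array was also read over all 76 genes, as the median of log2 signal minus the gene's own mean over the 9 arrays. This median was -0.20 on the add-back array, -0.20 on the untransduced null array and -0.27 on the null GFP array. In the wild-type line it was 0.12 with K278*, 0.07 with E824*, 0.07 with Q1430*, 0.15 with full-length PREX2, 0.23 with GFP and -0.02 with LacZ. The 2 control vectors were thus the highest and the lowest of the wild-type line, further apart than either was from the PREX2 arrays, and LacZ was the wild-type-line array nearest to the null line. GFP was above LacZ for 62 of the 76 genes, beside 4740 of 10177 genes overall (46.6%), with a median log2 difference of 0.24 beside -0.03 over all genes. The widest differences were in Mrpl12 (0.79), Mrps5 (0.69) and Mrpl20 (0.69), and the opposite sign was widest in Mrpl23 (-0.49) and Mrpl33 (-0.41), all without a test since each vector has 1 array. GFP was the highest wild-type-line array for 42 of the 76 genes, beside 30.5% of all genes, and LacZ was the lowest for 31. With GFP and K278* both left out, 47 members were lower and 4 higher in the line comparison, with a median of -0.33. The share of all tested genes that passed in that setting is not given here.

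**Figure D4:**
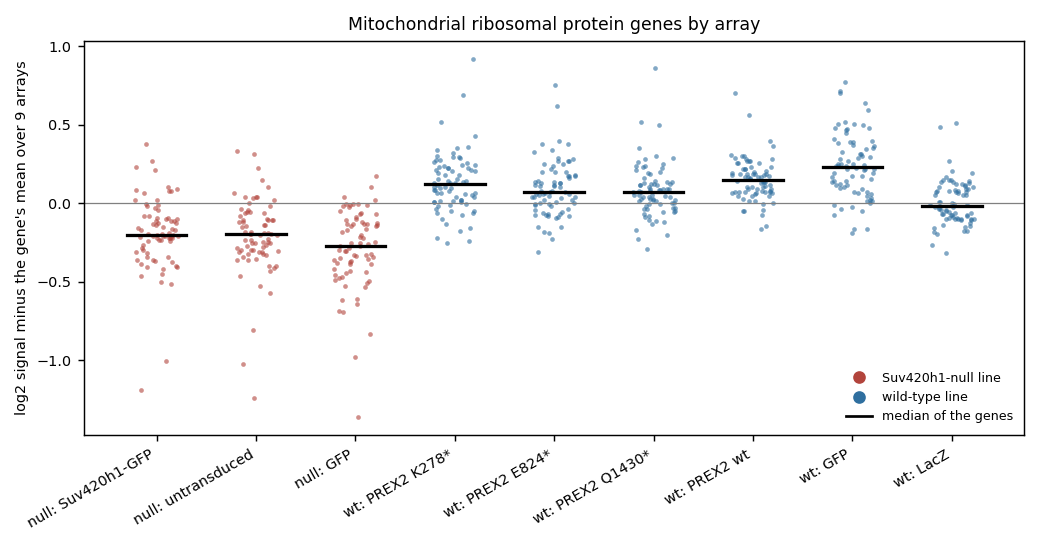
Log2 signal of each of the 76 genes minus its mean over the 9 arrays, by array, with the median of the genes as a black bar. The 3 null-line arrays (red) have medians of -0.27 to -0.20, and the wild-type-line arrays (blue) reach from -0.02 with LacZ to 0.23 with GFP.

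A narrower comparison set the 2 null arrays without add-back against the 2 wild-type control-vector arrays, which are also part of the line comparison. Here 18 of the 76 genes were lower, 0 were higher and 58 did not pass, beside 1019 lower and 1042 higher (10.2%) among 10177 tested genes, 20.3% in either direction (limma, adjusted p under 0.05). At an unadjusted p under 0.05 (limma) there were 39 of the 76, beside 3533 of all 10177 tested genes. The median log2 change was -0.36, beside -0.03 over all genes, and 70 of 76 lay below 0. The large subunit held 15 of the 18 (of 49 genes), and the small subunit 3 (of 26). Mrpl33 read 1402 and 1285 on the null arrays, against 3515 with GFP and 4677 with LacZ (log2 -1.58, SE 0.157, adjusted p = 0.000908). Next among the genes that passed came Mrpl37 (-1.38, SE 0.241), Mrpl23 (-1.19, SE 0.208), Mrps6 (-0.83, SE 0.209) and Mrpl17 (-0.75, SE 0.100). Mrpl20 (-0.95, adjusted p = 0.0560), Mrpl12 (-0.76, adjusted p = 0.105) and Mrpl1 (-0.64, adjusted p = 0.0647) had changes of like size without passing (limma).

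Mrpl15, Mrpl58, Mrps10, Mrpl14 and Mrpl2 completed the 10 largest decreases among the genes that passed, at log2 -0.64 to -0.60, with adjusted p between 0.0108 and 0.0428. Of these Mrpl2 is the counterpart of a bacterial protein that helps to form the peptidyl transferase centre, and Mrpl14 of one at the face between the subunits. Of the 9 genes with roles of their own named above (Mrpl12, Mrpl44, Mrpl58, Mrps12, Mrps18a, Mrps18b, Mrps18c, Mrps30 and Mrps36), Mrpl58 was lower and the other 8 did not pass, with changes of all 9 between -0.76 and -0.10. Above 0 and not called were Mrps31 (0.39), Mrpl9 (0.33), Mrps33 (0.23), Mrpl55 (0.21), Mrpl36 (0.13) and Mrpl51 (0.04). The number of calls depended on single arrays: with GFP-transduced wild-type cells left out it was 7, with LacZ left out 34, and with either null array left out 2. The shares of all tested genes that passed with these arrays left out are not given here. Whether the members or the whole fit moved therefore cannot be told from the counts. The members' median was -0.26 without GFP and -0.48 without LacZ. Mrpl33 and Mrpl17 passed whichever of these 4 arrays was left out.

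**Figure D5:**
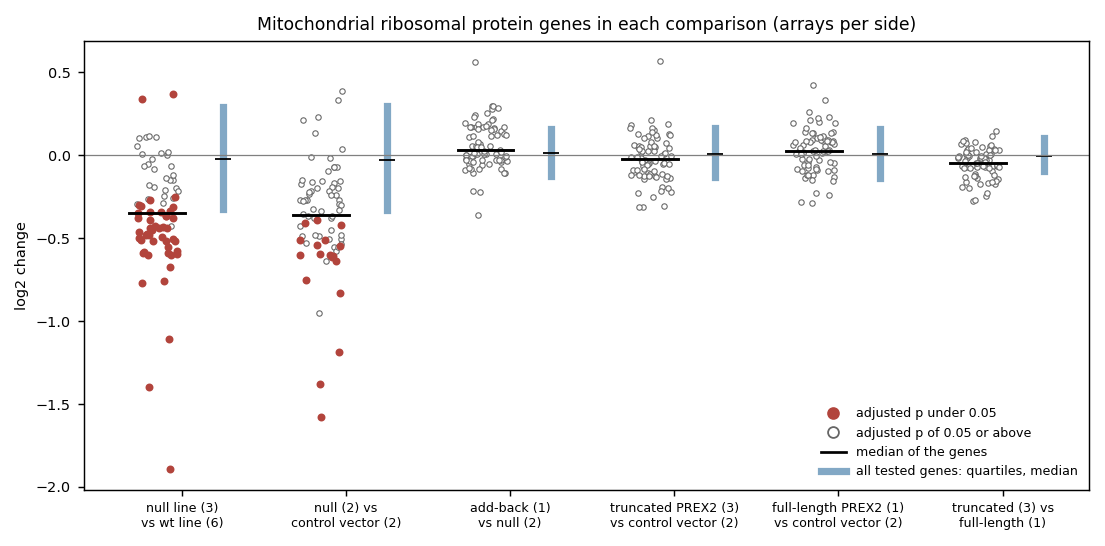
Log2 change of the 76 genes in each of the 6 comparisons (arrays per side in brackets), filled where the adjusted p was under 0.05, with their median as a black bar and the quartiles and median of all tested genes in blue. The members' medians are -0.35 and -0.36 between the lines and lie between -0.04 and 0.03 within them.

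Adding Suv420h1-GFP back to the null line was compared with the 2 null arrays, a comparison of 1 array against 2 in which the single array was assumed to vary like the others. By limma 0 of the 76 genes passed and 0 had an unadjusted p under 0.05, and over all tested genes 0% passed. The members' median log2 change was 0.03, beside 0.02 over all genes, with a range of -0.36 to 0.57. Mrpl23 was at the upper end, with 1173 on the add-back array against 732 and 841 (log2 0.57, SE 0.254, unadjusted p = 0.0597). Mrps28, a small-subunit protein, was at the lower end, with 1839 against 2267 and 2477 (log2 -0.36, SE 0.156, unadjusted p = 0.0514). The next smallest p-values above 0 were those of Mrps25 (0.30), Mrps35 (0.23), Mrpl17 (0.16) and Mrps17 (0.18), and those below 0 of Mrpl48 (-0.22), Mrpl3 (-0.22), Mrpl44 (-0.11) and Mrps15 (-0.11). The 9 genes with roles of their own lay between -0.11 and 0.17. For Mrpl33 and Mrpl37, with the largest differences between lines, the add-back array read 1453 and 376, against 1402 and 434 on the untransduced null array and 1285 and 382 on the null GFP array.

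Truncated PREX2 was compared with control vector within the wild-type line (3 arrays against 2). By limma 0 of 76 genes passed, beside 0.00983% of all tested genes, and 1 of the 76 had an unadjusted p under 0.05. A larger share of all tested genes than of the 76 had an unadjusted p under 0.05 (limma). The median was -0.02, beside 0.01 over all genes. The 1 gene was Mrpl33, which read 6343, 5648 and 6091 with K278*, E824* and Q1430*, against 3515 with GFP and 4677 with LacZ (log2 0.57, SE 0.143, unadjusted p = 0.00487, adjusted p = 0.844). The groups did not overlap for Mrpl33, but the difference did not pass over all probe sets. Mrps24 (0.16), Mrpl48 (0.21), Mrpl54 (0.17) and Mrpl52 (0.14) followed above 0, and Mrps30 (-0.30), Mrps18b (-0.31), Mrpl15 (-0.19), Mrpl3 (-0.22) and Mrpl42 (-0.14) below 0, these 5 with overlapping groups. The 9 genes with roles of their own lay between -0.31 and 0.15. The members' median was 0.08 without the GFP array and -0.13 without the LacZ array, so its sign was set by which control vector was used.

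Full-length PREX2 (1 array) against the same control arrays gave 0 passing genes of 76 and 0 with an unadjusted p under 0.05 (limma), and over all tested genes 0% passed. The median was 0.03, beside 0.01 over all genes, and was 0.15 without GFP and -0.09 without LacZ. Mrpl33 was again highest in log2 change, at 5440.2 against 3515 and 4677 (0.42, SE 0.192, unadjusted p = 0.0622), in a comparison that shares its control arrays with that of the truncated forms. Mrpl55 (0.33), Mrpl17 (0.21), Mrpl32 (0.20) and Mrpl48 (0.23) followed above 0, and Mrpl15 (-0.24), Mrps6 (-0.28), Mrpl19 (-0.29), Mrps2 (-0.23) and Mrpl22 (-0.12) below 0. The 9 genes with roles of their own lay between -0.16 and 0.22.

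Truncated PREX2 against the full-length protein (3 arrays against 1) also gave 0 passing genes and 0 with an unadjusted p under 0.05 (limma), beside 0% of all genes. The median was -0.04, beside 0.00 over all genes, and the range of -0.27 to 0.15 was the narrowest of the 6 comparisons. Mrpl33, at 6343, 5648 and 6091 against 5440.2, was the highest (log2 0.15, SE 0.181), and Mrps30, at 1211, 1015 and 939.7 against 1274, the lowest (-0.27, SE 0.230). Smallest p-values otherwise belonged to Mrpl9 (0.11), Mrpl22 (0.07), Mrpl14 (0.08) and Mrps2 (0.09) above 0 and to Mrpl32 (-0.17), Mrpl55 (-0.23), Mrpl17 (-0.13) and Mrpl44 (-0.16) below 0. The genes with roles of their own lay between -0.27 and 0.03.

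Genes that build or use the mitochondrial ribosome were read in the line comparison beside its proteins, where 23.2% of all tested genes were lower and 20.7% higher. The counts of these short lists are descriptions and were not tested against that share. Of 4 tested ribosomal proteins with other symbols, Chchd1, of the small subunit, was lower, at 2765 and 2688 on the null arrays and 2873 on the add-back array, against 4249 to 5504 in the wild-type line (log2 -0.71, SE 0.0904, adjusted p = 0.000119). Gadd45gip1, of the large subunit, was higher (log2 0.46, SE 0.130, adjusted p = 0.0153), while Dap3 (-0.17) and Ptcd3 (0.12) did not pass. Of 19 tested assembly factors 9 were lower and 0 higher, with a median of -0.28. These included Ngrn, which acts on the large-subunit RNA (log2 -1.13, SE 0.136), the RNA methyltransferases Nsun4 (-0.70, SE 0.104) and Mrm3 (-0.59, SE 0.137), and Rbfa, which helps to mature the small subunit (-0.59, SE 0.0852).

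Translation factors and their partners counted 6 lower and 0 higher of 15 (median -0.25). The elongation factor Tufm read 675 and 507 on the null arrays and 623 on the add-back array, against 1058 to 1450.1 in the wild-type line (log2 -1.02, SE 0.133, adjusted p = 0.00014). Lower as well were the release factor Mtrf1l (-0.82, SE 0.0902), Slirp, which stabilises mitochondrial messages (-0.68, SE 0.0734), and the initiation factor Mtif3 (-0.41, SE 0.148). Of 6 genes of mitochondrial transcription 2 were lower, the promoter factor Tfb2m (-0.53, SE 0.102) and the RNA polymerase Polrmt (-0.33, SE 0.105), with a median of -0.24. Mitochondrial aminoacyl-tRNA synthetases, which charge the transfer RNAs, were called in both directions, in shares near those of all genes: 2 of 13 were lower, Pars2 (-0.73, SE 0.166) and Hars2 (-0.49, SE 0.126), and 3 were higher, Cars2 (0.86, SE 0.123), Lars2 (0.40, SE 0.104) and Rars2 (0.25, SE 0.0910), with a median of 0.19.

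Of 11 regulators of mitochondrial gene expression 2 were lower and 3 higher, near the shares over all genes, with a median of 0.09. The coactivators Ppargc1b (log2 -2.26, SE 0.229) and Ppargc1a (-1.48, SE 0.220) were lower, at signals of 11.7 to 43.7 and 24.7 to 47.2 in the null line, against 151 to 283 and 105 to 237 in the wild-type line, near the low end of the scale. Both passed the filter on a mean signal of at least 100 only through the wild-type-line arrays. At such null-line signals a decrease was the only call open to them. The related coactivator Pprc1 was higher (0.52, SE 0.163), and so were the growth regulators Myc (0.91, SE 0.248) and Mycn (2.76, SE 0.765). Mycn differed within the null line, at 146 on the untransduced, 5232 on the GFP and 1031 on the add-back array. Nrf1 (0.09, SE 0.184), Gabpa (-0.10, SE 0.113) and Yy1 (0.16, SE 0.0719), which encode factors whose motifs were searched for, did not pass.

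In the null-against-control comparison 1019 of all 10177 tested genes were lower and 1042 higher (10.2%). There the same lists gave 1 lower and 0 higher of 4 other ribosomal proteins, and 4 lower and 0 higher of 19 assembly factors. Translation factors counted 3 lower and 0 higher of 15, and transcription genes 1 lower and 0 higher of 6. Regulators counted 2 lower and 0 higher of 11, and synthetases 1 lower and 1 higher of 13. These counts were not tested against those of all genes. In the other 4 comparisons 0 genes of these lists passed. Between the lines, 23.2% of all tested genes were lower and 20.7% higher. Nuclear-encoded subunits of the respiratory chain and ATP synthase join the subunits that mitochondrial ribosomes make. They were lower for 50 and higher for 4 of 76 tested genes between the lines (median -0.33). Cytosolic ribosomal proteins were lower for 16 and higher for 1 of 42 (median -0.17). Set beside the mitochondrial ribosomal proteins (45 lower, 2 higher of 76, median -0.35), these counts are a description, and the differences between the gene sets were not tested.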

How the data were processed

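Biotin-labelled RNA of 9 samples was read on Affymetrix arrays. The authors deposited linear intensity values made with MAS5, per the submitters' processing notes (version and target not given in the sources used here). Of 45101 probe sets, 64 controls were left out, and genes were named only from the 34945 probe sets with 1 gene symbol. Signals were taken as log2(signal + 25), so fold changes understate those of dim probe sets, and probe sets with a mean of at least 100 were tested (19090 probe sets, 10177 genes). Tests used limma 3.58.1 (R 4.3.3, moderated variance with an intensity trend, two-sided, Benjamini-Hochberg over all tested probe sets). The line comparison used a fit of 2 means (7 residual degrees of freedom), and the others a fit of 5 group means (4 residual degrees of freedom), in which a lone array takes its spread from the other groups. The number of arrays limits the precision. The procedure was tested on simulated data.

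In each comparison the text names up to 10 passing members each way, filled to 5 by the smallest p, 9 members with roles of their own, and up to 4 passing genes per list. The members and lists were chosen with earlier results of these data known. Alternatives were other offsets and filters, quantile normalization, no trend, the compared groups alone, the mean of all probe sets, each array left out and, chosen after seeing the data, no _s_at or _x_at probe sets, 2 arrays left out together, and the chromosome median subtracted.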

Additional observations from a re-analysis of the deposited data

Results flagged for a closer look

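Of 76 genes, 4 had an array far from the other 5 of the wild-type line, measured as the gap to the nearest array over the whole range. Chance flags about 1 in 20 groups, a share near that of these 4 of 76 genes. In 3 of them it was the GFP array that was high: Mrpl42 read 5704 there, with the others at 4570.2 to 4885, Mrps6 read 14178, with the others at 9365 to 10827, and Mrps25 read 1667, with the others at 1249 to 1387. In Mrpl46, of the large subunit, LacZ was low at 822, with the others at 956 to 1015.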

How the results depend on the processing

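In the line comparison none of the 47 called members changed sign under the settings run, while members that were not called did: of 76 members, 66 lay below 0 as reported, and 63 to 70 over the alternatives that kept all 76. The count of called members, 47 as reported, was 42 to 51 over the other settings and 38 to 49 with 1 array left out, and the median of -0.35 was -0.35 to -0.33 and -0.38 to -0.33. The smallest count of 38 came without the untransduced null array, and without the add-back array it was 41. Of the genes named there, Mrpl12 also failed to pass in the fit of 5 group means, and Mrpl9 with the mean of its probe sets and without _s_at and _x_at probe sets. For the null line against control vector, the count of 18 was 4 with the compared groups alone, 13 to 20 under the other settings, and 2 to 34 with 1 array left out, and the median of -0.36 was -0.48 to -0.26 with 1 array left out. The shares of all tested genes that passed under the settings of both comparisons are not given here, so these counts do not separate the members from the whole fit. The cause was not tested. For truncated and full-length PREX2 against control vector, leaving out 1 array gave medians of -0.133 to 0.0803 and -0.0921 to 0.146, with 0 calls throughout. No paired analysis was possible because the labels give no replicate numbers that groups share. With 1 to 3 arrays a group, only changes with little spread between arrays passed, and a gene that did not pass is not shown to be unchanged.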
